A study of Mus musculus with 16 samples.

Results

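The Gimap family of GTPases was described across RNA libraries of sorted mouse thymic double-positive cells, a stage of T cell development at which both CD4 and CD8 are on the surface. Its members were the 8 rows of the count tables whose Ensembl identifiers, with the version removed, map to Gimap1, Gimap3, Gimap4, Gimap5, Gimap6, Gimap7, Gimap8 and Gimap9. They are 8 of 55335 listed gene identifiers in libraries with an age and 8 of 54532 in libraries without one. All 8 passed the filter on low counts in each comparison.

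The 16 libraries fall into 5 groups: old WT (4), young METTL3 KO (3), young WT (3), and METTL3 KO (3) and WT (3) with no age given. METTL3 is the enzyme that places N6-methyladenosine marks on RNA. All cells came from thymus and were sorted by flow cytometry, and the labels give no age in weeks, strain, Cre driver, deleted part of Mettl3 or pooling of animals for any group. Nothing in the labels says that replicates came from separate animals, so p-values measure only the spread between these samples. Sequencing and the gene identifiers listed differed between the libraries with and without an age, and levels were compared only within each of these 2 sets.

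GIMAP proteins are GTPases of lymphocytes, and several sit on the membranes of organelles such as the endoplasmic reticulum, Golgi, lysosome or mitochondria. The best known, GIMAP5, keeps resting T cells alive, and its loss causes lymphopenia in rats and mice. In mouse thymus, transcripts of several family members are known to increase as cells pass from the double-positive stage to the mature single-positive stage.

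The genes form 1 cluster on chromosome 6 of mm10, spanning 123618 bp at chr6:48647234-48770851. In order along the chromosome they are Gimap8, Gimap9, Gimap4, Gimap6, Gimap7, Gimap1, Gimap5 and Gimap3, with 6 on the plus strand and Gimap6 and Gimap3 on the minus strand. Gm28053, a protein-coding readthrough gene on the plus strand, shares 198 bp of exon with Gimap1, 153 bp with Gimap5 and 81 bp with Gimap7. Gimap1os, a noncoding gene on the minus strand, shares 1107 bp with Gimap1, or 36.0% of the exon length of Gimap1. The strand setting of the counting is not given in the sources used here, so reads of Gimap1 and Gimap1os cannot be told apart. Gimap1os counts were 63.9% to 69.7% of those of Gimap1 in the 10 libraries with an age and 2.66% to 5.84% in the 6 without. The RefSeq gene table also lists Gimap5 among older names of Gimap3, and the 2 genes were kept apart here by their Ensembl identifiers.

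**Figure D1:**
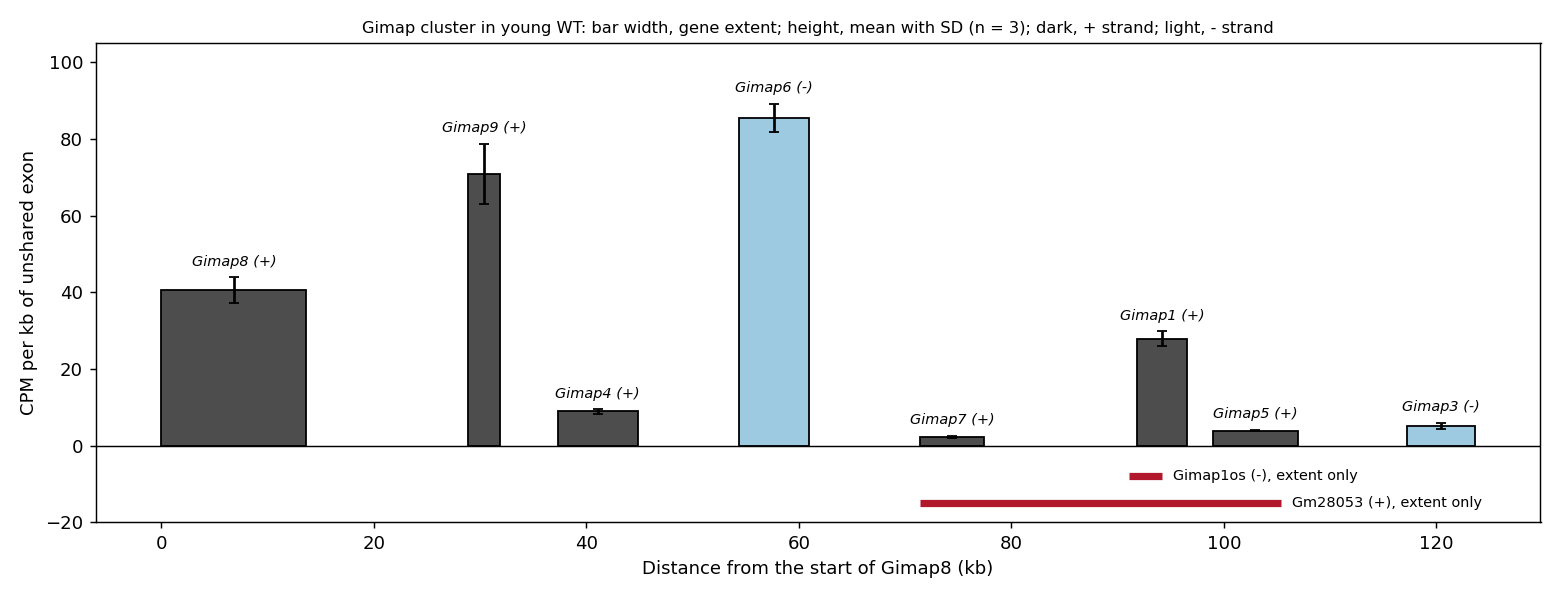
Map of the Gimap cluster by distance from the start of Gimap8 (kb). Bar width is the extent of each gene, and bar height its mean level in young WT (CPM per kb of exon not shared on the same strand, error bars SD, n = 3), dark for the plus and light for the minus strand, while red lines give the extent of the overlapping genes. Levels go from 85.5 CPM per kb for Gimap6 to 2.29 for Gimap7, and genes of high and low level lie side by side in the cluster.

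Promoter windows are shown for the 5 members on which the results below turn. Gimap3, Gimap4 and Gimap7 stood far above the other old WT libraries in 1 library, and Gimap5 and Gimap9 differed between KO and WT libraries without an age. Each window runs from 250 bases before to 50 after a RefSeq transcription start (GRCm38.p6), 5′ to 3′ on the strand of the gene. Capitals mark matches, on either strand, to the 6 motifs searched.
Gimap3, chr6:48770802-48771101, minus strand: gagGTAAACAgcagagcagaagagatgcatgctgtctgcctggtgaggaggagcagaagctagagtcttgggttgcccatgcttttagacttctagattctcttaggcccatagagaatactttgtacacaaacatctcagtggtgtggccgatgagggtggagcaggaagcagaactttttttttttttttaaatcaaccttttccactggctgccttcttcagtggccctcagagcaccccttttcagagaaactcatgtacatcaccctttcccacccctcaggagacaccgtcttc
Gimap4, chr6:48684328-48684627, plus strand: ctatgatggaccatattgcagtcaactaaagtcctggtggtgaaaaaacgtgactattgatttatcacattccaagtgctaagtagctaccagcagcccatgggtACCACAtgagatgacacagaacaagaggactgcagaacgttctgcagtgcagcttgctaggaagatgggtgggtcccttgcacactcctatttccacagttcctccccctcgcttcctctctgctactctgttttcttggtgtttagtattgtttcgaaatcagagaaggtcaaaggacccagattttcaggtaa
Gimap7, chr6:48718371-48718670, plus strand: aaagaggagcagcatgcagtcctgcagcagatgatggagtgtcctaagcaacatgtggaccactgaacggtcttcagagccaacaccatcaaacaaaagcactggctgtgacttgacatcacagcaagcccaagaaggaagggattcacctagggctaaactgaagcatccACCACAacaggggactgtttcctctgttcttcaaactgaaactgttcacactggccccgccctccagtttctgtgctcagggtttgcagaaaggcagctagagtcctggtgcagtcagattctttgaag
Gimap5, chr6:48745947-48746246, plus strand: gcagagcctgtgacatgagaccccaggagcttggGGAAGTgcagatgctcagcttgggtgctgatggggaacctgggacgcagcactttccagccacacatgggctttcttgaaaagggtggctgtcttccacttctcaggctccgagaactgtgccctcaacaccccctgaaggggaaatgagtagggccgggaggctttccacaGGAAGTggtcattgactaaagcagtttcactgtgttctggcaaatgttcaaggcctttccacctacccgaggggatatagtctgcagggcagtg
Gimap9, chr6:48675885-48676184, plus strand: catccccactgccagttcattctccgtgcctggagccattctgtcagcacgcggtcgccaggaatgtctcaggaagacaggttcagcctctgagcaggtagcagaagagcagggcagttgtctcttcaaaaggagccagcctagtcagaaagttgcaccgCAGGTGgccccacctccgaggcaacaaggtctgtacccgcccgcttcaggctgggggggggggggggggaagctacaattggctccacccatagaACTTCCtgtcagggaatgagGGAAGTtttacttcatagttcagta
The 6 motifs were each searched with their reverse complement, and none contains another. The RUNX motif was TGTGGT. Gimap4 and Gimap7 each held 1 match to it, starting 145 and 79 bases before the start site, and Gimap1, whose window is not printed, held 1 at 95 bases before it. This motif stands in 16.8% of all 32851 mouse promoter windows of this length. The ETS motif was GGAAGT. Gimap5 held matches to it 216 and 44 bases before its start, and Gimap9 held 2 such matches 5 and 25 bases after its start. Windows of Gimap6 and Gimap1 held it as well, and it stands in 23.8% of all windows. Of the 2 E-boxes searched, CAGGTG was found in Gimap9, at 90 bases before its start, and in 20.2% of all windows. The other E-box, the palindrome CAGCTG, was found in no member window and in 16.3% of all. Nor was the GATA motif, AGATAA, which stands in 11.2% of all windows. The forkhead motif, TGTTTAC, was found once, in Gimap3 at 247 bases before its start, and in 3.6% of all windows. The Gimap8 windows, of which there are 2, held none of the 6. A match is a description of the letters and not of binding.

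Gene counts summed to between 9781368 and 10307780 per library with an age, and between 10575795 and 16167074 per library without one. Unaligned entries took 50.5% to 52.2% of libraries without an age, and 0.577% to 0.826% of the others. Aligned entries outside genes took 47.5% to 51.2% of libraries with an age, and 7.23% to 15.03% of libraries without one. Old WT replicate 3 stood apart, with 9.18% of entries aligned at more than 1 place, against 4.46% to 5.36% in the other libraries with an age. The defining genes of the labelled stage were high in every library with an age: Cd4 lay at 1217 to 1532 CPM, Cd8a at 2144 to 2537 and Rag1 at 3482 to 7036. In KO libraries without an age Rag1 lay at 959 to 1201 CPM, against 5001 to 6312 CPM in their WT libraries. Mettl3, the targeted gene, averaged 63.7 ± 1.33 CPM in libraries labelled young KO and 63.8 ± 3.66 CPM in young WT (SD, n = 3 each), so its gene count showed no loss there. In the set without an age it averaged 32.7 ± 5.82 CPM in KO and 48.9 ± 4.96 CPM in WT (n = 3 each, edgeR log2 difference -0.58 ± 0.18 SE, adjusted p = 0.0189).

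The family was mostly carried by 4 genes. Levels are given as CPM, the read count of a gene relative to the library total, scaled by TMM within a set, and between genes as CPM per kb of exon. The length of Gimap1 keeps the 1107 bp shared with Gimap1os on the other strand. Its rank in each group may therefore depend on the strand setting of the counting, which is not given. In young WT, Gimap6 was highest at 85.5 ± 3.77 CPM per kb, followed by Gimap9 (71.0 ± 7.83), Gimap8 (40.6 ± 3.28) and Gimap1 (27.9 ± 1.86) (SD, n = 3). Gimap4 (8.91 ± 0.605), Gimap3 (5.18 ± 0.755), Gimap5 (3.94 ± 0.148) and Gimap7 (2.29 ± 0.348) followed. No 2 neighbours in this order overlapped between the young WT libraries. Gimap5, the member best known for T cell survival, was among the lowest transcripts per kb in these cells, above Gimap7 only.

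The order was the same in young KO, where only Gimap3 and Gimap5 overlapped as neighbours, and in old WT, where neighbours from Gimap1 downwards overlapped. WT libraries without an age also had Gimap6 first and Gimap9 second, with Gimap1 (49.2 ± 4.38 CPM per kb) and Gimap8 (46.0 ± 3.91) overlapping behind them. In KO libraries without an age Gimap1 stood second (66.7 ± 23.6), overlapping with Gimap9 (52.7 ± 14.1), which in turn overlapped with Gimap8. Gimap1, Gimap6, Gimap8 and Gimap9 together made up 86.99% of the family's summed CPM in old WT, 92.4% in young KO and 92.7% in young WT on average, and 93.9% in KO and 94.0% in WT without an age. The lowest share of any library was 71.6%, in old WT replicate 3.

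**Figure D2:**
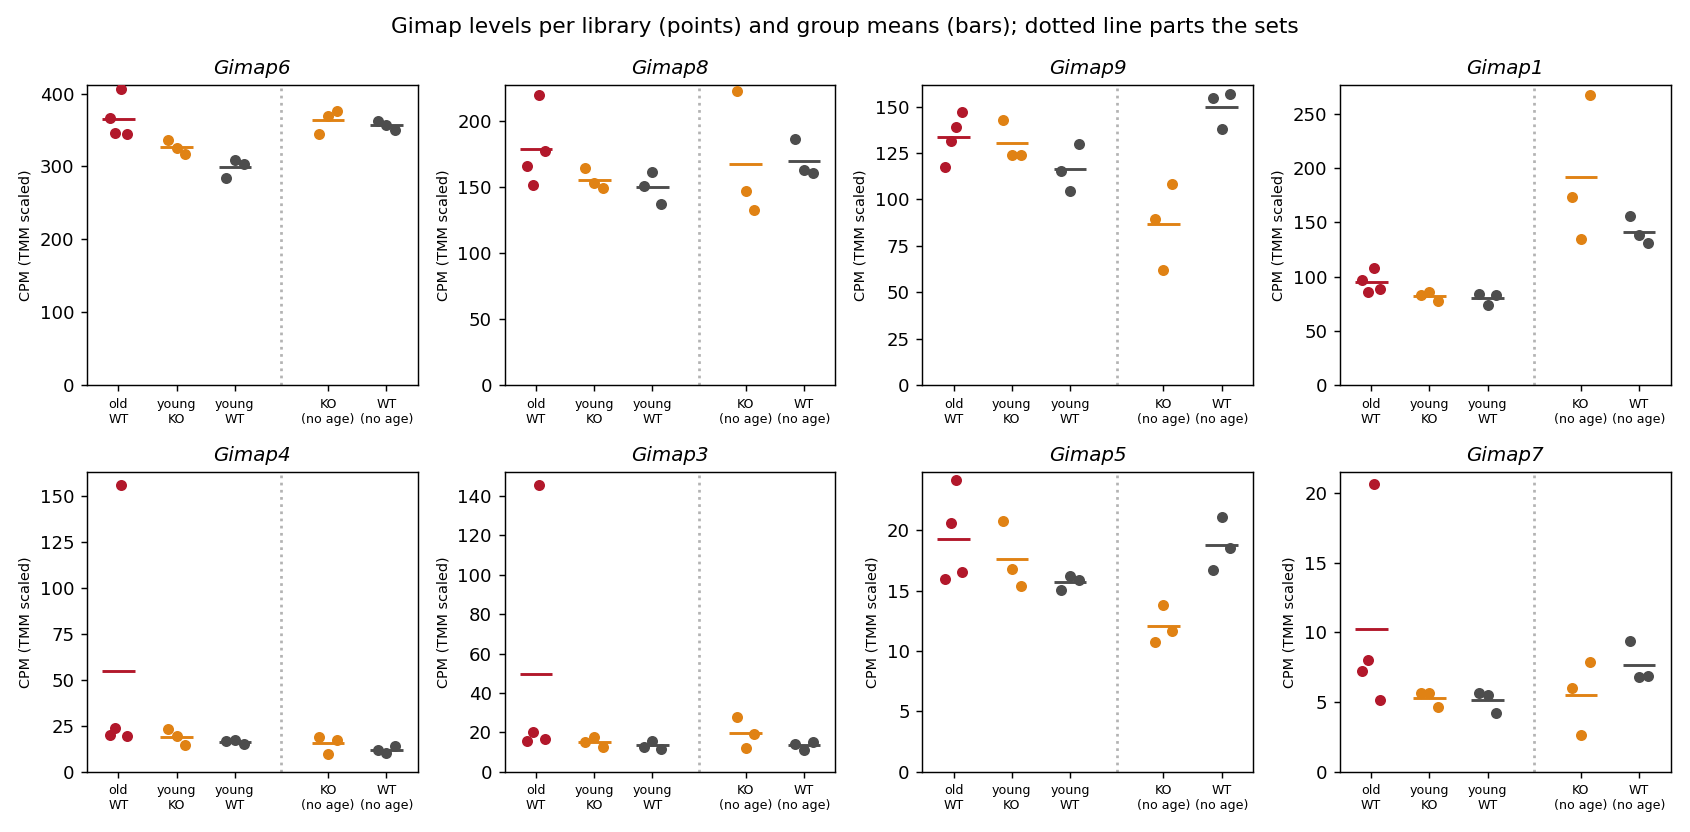
CPM of each Gimap gene (y axes, from 0) in every library (points) of old WT, young KO and young WT and, right of the dotted line, of KO and WT without an age, with bars at group means. The 2 sets were scaled apart and are not to be compared across the line. Old WT replicate 3 stands alone in Gimap4 (156 CPM), Gimap3 (146 CPM) and Gimap7 (20.6 CPM), and Gimap9 and Gimap5 lie lower in each KO library than in each WT library without an age.

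Old WT was set against young WT to ask how age changes these cells. None of the 8 members passed in edgeR's quasi-likelihood test, where 0.253% of all 14228 genes were called. DESeq2 called 1, Gimap6, where it called 153 of 14185 genes in all. All 8 had higher fitted levels in old WT, against 51.1% of all genes, with a median log2 difference of 0.29 against 0.01 over all genes. Unadjusted p was under 0.05 for 3 members (Gimap6, Gimap1 and Gimap7), and for 12.1% of all genes. In 4 members (Gimap6, Gimap1, Gimap4 and Gimap3) each old WT library lay above each young WT library, against 5.65% of all genes higher in this way and 9.78% in either direction. In bulk samples, more cells of a type and more RNA per cell cannot be told apart, nor can the reverse. These differences were small in most members, and large in 3, in which 1 library stood apart.

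Among members tied to survival, Gimap5 is required for the upkeep of peripheral T cells in mice. It had 15.9, 20.6, 24.2 and 16.5 CPM in old WT, against 15.1, 16.2 and 15.9 CPM in young WT. The groups overlapped, and the log2 difference was 0.29 ± 0.16 (SE, edgeR adjusted p = 0.479). Gimap1, needed for the survival of mature B and T cells in mice, had 96.6, 85.7, 107 and 88.9 CPM in old WT, against 83.8, 74.2 and 83.0 CPM in young WT. Each old WT library was above each young WT library, by a log2 difference of 0.24 ± 0.09 (adjusted p = 0.368). Its antisense partner Gimap1os had 62.1 ± 7.83 CPM in old WT (n = 4) and 52.3 ± 3.70 CPM in young WT (n = 3).

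Gimap3 is a mouse gene close in sequence to Gimap5, and it affects the segregation of mitochondrial DNA in mouse blood cells. It had 15.5, 20.1, 146 and 16.7 CPM in old WT, against 12.8, 15.5 and 11.8 CPM in young WT. The lowest old WT and the highest young WT library both rounded to 15.5 CPM, and old WT replicate 3 was far above the rest. The log2 difference was 1.88 ± 0.91 (adjusted p = 0.449), and 0.39 without old WT replicate 3. Gimap4, which in mouse T cells speeds the last steps of apoptosis, showed the same picture. It had 20.0, 23.9, 156 and 19.7 CPM in old WT, against 16.7, 17.2 and 15.1 CPM in young WT. Its log2 difference was 1.74 ± 0.85 (adjusted p = 0.454), and 0.38 without that library.

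Gimap6 and Gimap7 belong to the arm of the family tied to autophagy, in which GIMAP6 binds the Atg8-like protein GABARAPL2 and recruits GIMAP7. Gimap6, the most abundant member, had 367, 346, 406 and 344 CPM in old WT, against 284, 309 and 303 CPM in young WT. All 4 old WT libraries were higher, and the difference did not rest on replicate 3, with a log2 difference of 0.29 ± 0.09 in all libraries and 0.24 without it. Its adjusted p was 0.258 in edgeR, between 0.155 and 0.777 with 1 library left out, and 0.0328 in DESeq2, so that its call depended on the tool. Gimap7, the lowest member per kb, had 7.23, 8.03, 20.6 and 5.12 CPM in old WT, against 5.65, 5.51 and 4.23 CPM in young WT. The groups overlapped, and the log2 difference of 0.99 ± 0.40 (adjusted p = 0.371) was 0.40 without replicate 3.

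Gimap8, the longest protein of the family and a gene of lymphocytes, had 166, 152, 220 and 178 CPM in old WT, against 151, 162 and 138 CPM in young WT. Gimap9, a member of little studied function, had 118, 132, 139 and 147 CPM in old WT, against 115, 104 and 130 CPM in young WT. Both overlapped between the groups, with log2 differences of 0.25 ± 0.12 and 0.20 ± 0.10 (adjusted p = 0.414 and 0.461). Without old WT replicate 3 all 8 members stayed above 0, with a median log2 difference of 0.21 and values from 0.14 to 0.40, and none was called. The summed family level was 805, 788, 1218 and 816 CPM in old WT, against 685, 704 and 701 CPM in young WT, and the groups did not overlap. Of single genes, 5.65% lay higher in old WT in this way. Gimap1, Gimap6, Gimap8 and Gimap9 made up 86.99% of this sum in old WT and 92.7% in young WT on average. The sum thus mostly repeats the levels of these genes.

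**Figure D3:**
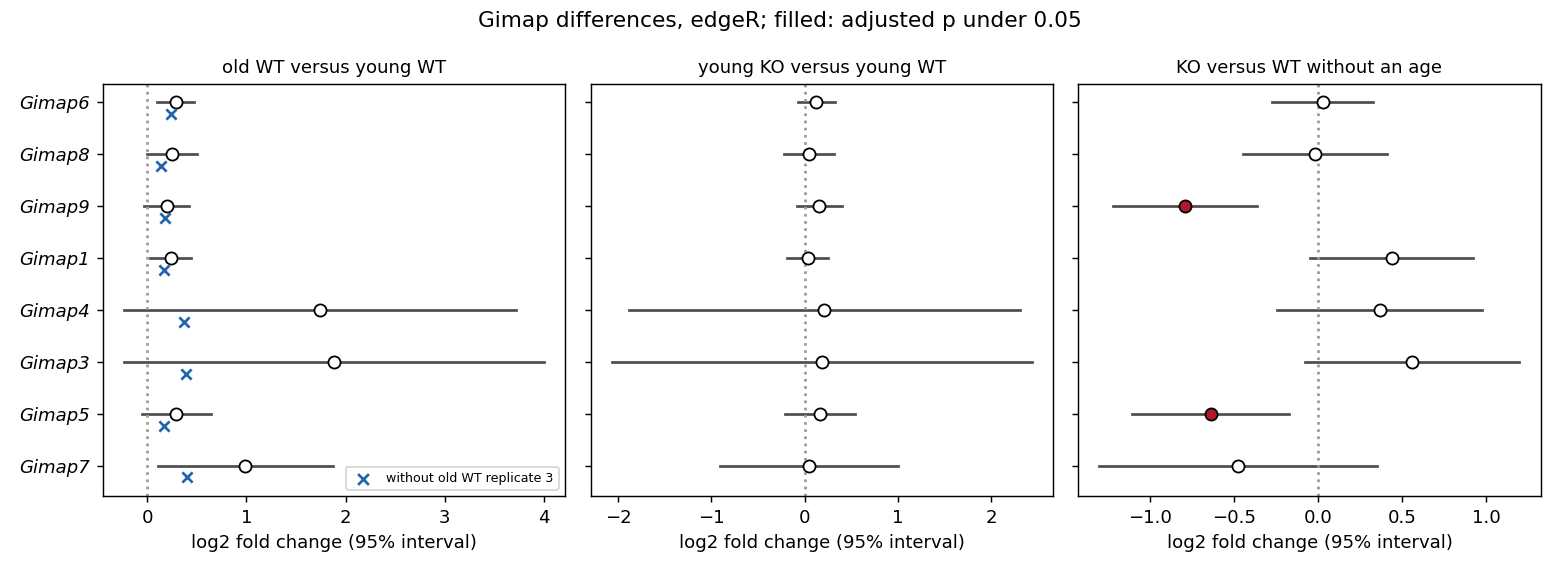
Log2 fold changes of the 8 Gimap genes (x axes, points with 95% intervals from edgeR, filled where adjusted p is under 0.05) in 3 comparisons, with values without old WT replicate 3 as crosses in the first. All 8 points lie above 0 in old against young WT and in young KO against young WT, with none filled, and the crosses lie between 0.14 and 0.40. Gimap9 (-0.79) and Gimap5 (-0.64) are the filled points of KO against WT without an age.

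Old WT replicate 3 split the family. Gimap3 was 8.34 times, Gimap4 7.35 times and Gimap7 3.04 times the mean of the other 3 old WT libraries. The readthrough gene Gm28053, which starts at Gimap7, had 3.01 CPM there, against 0.684 to 1.16 CPM in the other old WT libraries. The remaining 5 members were 1.05 to 1.37 times that mean, lowest in Gimap9 and highest in Gimap5. Summed, Gimap3, Gimap4 and Gimap7 had 322 CPM in that library, 41.5 to 52.0 CPM in the other old WT libraries and 31.1 to 38.3 CPM in young WT.

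Genes of other stages and cell types were higher in the same library. Of the mature thymocyte and egress genes, which mark cells that have passed selection and leave the thymus, Slfn1 of the Schlafen family was 9.07 times the mean of the other old WT libraries. S1pr1, the receptor that guides exit from the thymus, was 8.14 times, the chemokine receptor Ccr7 6.26 times, the interleukin 7 receptor chain Il7r 5.40 times and the transcription factor Klf2 3.41 times that mean. Others of the list did not stand out, among them Foxo1 (0.891 times). The summed level of all 16 genes was 1688 CPM in that library, against 1341 to 1365 CPM in the other old WT libraries and 1190 to 1252 CPM in young WT.

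Markers of other cells stood apart there as well. The 10 myeloid genes summed to 292 CPM, against 40.5 to 47.9 CPM in the other old WT libraries, and the 10 B cell genes to 185 CPM, against 29.7 to 74.1 CPM. The 12 double-positive stage genes summed to 14095 CPM, against 14765 to 18561 CPM in the other old WT libraries, with Rag1 at 0.679 times their mean. The endothelial genes Tie1 and Cldn5 were at 0 counts in all old WT libraries, and Pecam1, which averaged 123 CPM in old WT, made up nearly all of the endothelial sum. The mean log2 CPM of the 12 endothelial genes was -0.40 in that library, against -1.09 to -0.68 in the other old WT libraries. The part of these cell types, or of entries aligned at more than 1 place, in the levels of Gimap3, Gimap4 and Gimap7 was not tested.

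**Figure D4:**
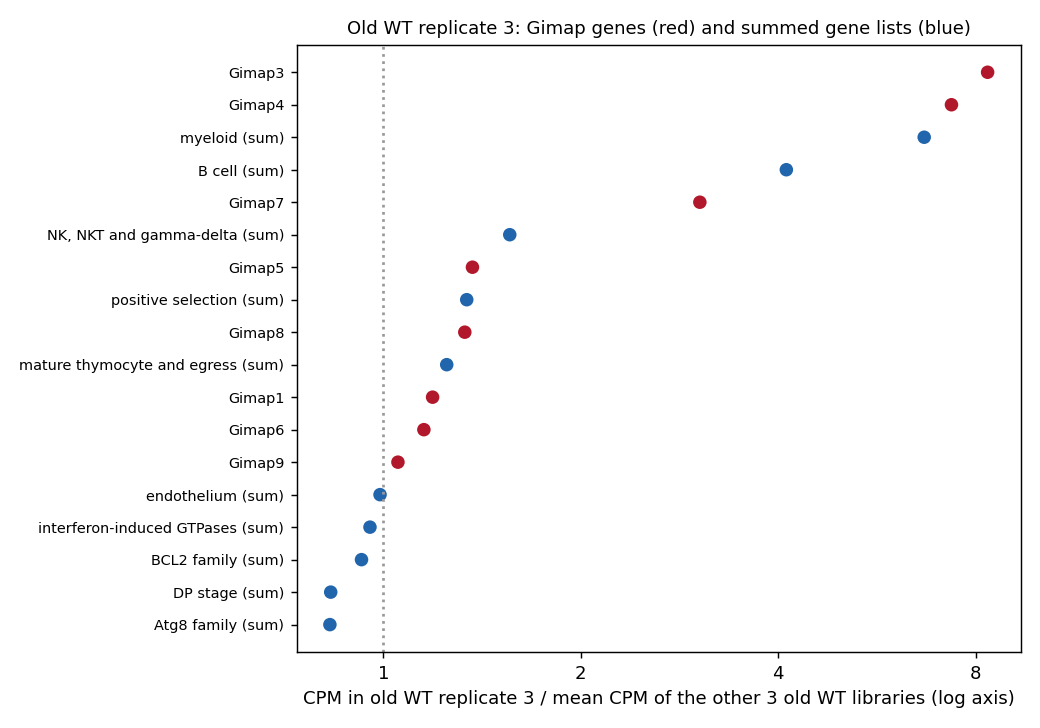
CPM in old WT replicate 3 over the mean CPM of the other 3 old WT libraries (x axis, log scale) for each Gimap gene (red) and for the summed CPM of each gene list (blue). Gimap3 and Gimap4 lie at 8.34 and 7.35 times, beside the myeloid (6.68) and B cell (4.12) sums, whereas Gimap9 and Gimap6 lie at 1.05 and 1.15 times.

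Across all 10 libraries with an age, the log2 levels of Gimap3 and Gimap4 moved together, with Pearson's r of 0.990, and r was 0.814 over the 9 libraries without old WT replicate 3. Over the 6 libraries without an age it was 0.940. Gimap7 followed Gimap4 with an r of 0.96 over 10 libraries and 0.753 over 9. Gimap9 followed the others least, with r from 0.232 (Gimap7) to 0.561 (Gimap5) over 10 libraries. These values are descriptions of libraries that share groups and sequencing, and carry no test. Among 9390 other genes of at least 5 CPM, the 5 whose log2 level was most like the mean of the family over the 10 libraries were H2-K1 (r = 0.981), Tesk1 (0.980), Tnfrsf1b (0.980), Pik3cd (0.98) and Itgb7 (0.973). H2-K1, a class I histocompatibility gene, had 596 CPM in old WT replicate 3, against 86.5 to 110.5 CPM in the other old WT libraries and 78.9 to 85.2 CPM in young WT. Without that library the 5 values were between 0.767 and 0.838, and over the 6 libraries without an age between -0.32 and 0.46.

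Genes of apoptosis, of the Atg8 family and of another family of immune GTPases were read from lists (n = 4 old WT and 3 young WT libraries). Of 16 BCL2 family genes, which set the threshold of mitochondrial apoptosis, 12 were tested between old and young WT, 7 were above 0 and none was called (median log2 difference 0.05). Bmf, a proapoptotic member, averaged 107 ± 27.9 CPM in old WT and 219 ± 60.7 CPM in young WT (-1.03, adjusted p = 0.21), and the survival gene Bcl2 40.5 ± 14.8 CPM in old WT and 28.2 ± 1.51 CPM in young WT (0.52, adjusted p = 0.381). Of the 5 Atg8 family genes, none was called and 2 were above 0, and Gabarapl2, the partner of GIMAP6, had 69.8 ± 3.70 CPM in old WT and 73.8 ± 5.11 CPM in young WT (-0.08, adjusted p = 0.727). The interferon-induced GTPases, a second family of immune GTPases, were above 0 in 16 of 16 genes, with a median of 0.81 and 1 call, Igtp (0.78, adjusted p = 0.0224). Igtp averaged 118 ± 22.6 CPM in old WT and 69.1 ± 4.23 CPM in young WT. By mean log2 CPM, old WT replicate 3 stood apart in this list too, at 4.85, against 3.89 to 4.15 in the other old WT libraries and 3.51 to 3.66 in young WT. By summed CPM replicate 3 did not, with 983 CPM, against 932 to 1083 CPM in the other old WT libraries. Without that library 16 of 16 genes were above 0, with a median of 0.46, and Igtp was called (0.64, adjusted p = 0.00788).

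Other lists were also above 0 with no gene called in old against young WT. They were the mature thymocyte and egress genes (15 of 15 tested, median 0.69), positive selection genes (12 of 12, 0.42), B cell genes (8 of 8, 2.79), myeloid genes (7 of 7, 1.36) and NK, NKT and gamma-delta genes (4 of 4, 0.88). The last 3 lists hold 10 genes each, and the others did not pass the filter on low counts. A gene near the floor in young WT, such as Cd22 (0.40 CPM, 10.9 CPM in old WT), can pass only through libraries where it is high. The direction of such genes was therefore partly fixed by the filter. Much of this rested on old WT replicate 3. Without it the mature thymocyte and egress genes were above 0 in 11 of 15, with a median of 0.11, and the positive selection genes in 11 of 12, with a median of 0.24. B cell genes were then above 0 in 6 of 6 tested (1.61), myeloid genes in 5 of 7 (0.25) and NK, NKT and gamma-delta genes in 3 of 4 (0.06), and none was called. Double-positive stage genes were above 0 in 7 of 12, with a median of 0.02, and the only endothelial gene tested, Pecam1, differed by -0.08.

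The comparison of young KO with young WT sets libraries labelled METTL3 KO, in which the Mettl3 count was not lower, against WT libraries of young cells, and it shares the young WT libraries with the age comparison. No member passed (0.0% of all genes were called in edgeR, and DESeq2 and limma-voom also called 0), and no member had an unadjusted p under 0.05, against 0.618% of all genes. All 8 had fitted levels above 0, against 49.7% of all genes, but the differences were small, with a median of 0.14 and a range of 0.03 to 0.21. Gimap6 had 337, 325 and 317 CPM in young KO, against 284, 309 and 303 CPM in young WT. It was the only member whose groups did not overlap, against 9.26% of all genes in either direction and 4.55% with young KO higher, with a log2 difference of 0.13 ± 0.09 (95% interval -0.07 to 0.33, adjusted p = 1).

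Gimap5 had 20.7, 16.8 and 15.4 CPM in young KO, against 15.1, 16.2 and 15.9 CPM in young WT (0.16 ± 0.17). Gimap9 had 143, 124 and 124 CPM in young KO, against 115, 104 and 130 CPM in young WT (0.16 ± 0.11). Both overlapped between the groups. Intervals of Gimap1 (-0.19 to 0.25), Gimap8 (-0.22 to 0.32) and Gimap9 (-0.08 to 0.40) were narrow. Those of Gimap3 (-2.07 to 2.44), Gimap4 (-1.88 to 2.31) and Gimap7 (-0.90 to 1.01) were wide. The spread behind these intervals is shared by all 10 libraries, old WT replicate 3 included. Gimap3 ranged from 12.5 to 17.8 CPM in young KO and 11.8 to 15.5 CPM in young WT. Gimap4 ranged from 14.3 to 23.3 CPM in young KO and 15.1 to 17.2 CPM in young WT, and Gimap7 from 4.67 to 5.66 CPM in young KO and 4.23 to 5.65 CPM in young WT. Levels of all 3 overlapped between the groups. No gene of the 10 lists was called in this comparison, and the summed mature thymocyte genes lay at 1192 to 1220 CPM in young KO and 1190 to 1252 CPM in young WT.

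In the libraries without an age, 2 of 8 members passed between KO and WT, both lower in KO. Here 53.9% of all 16432 genes were called in either direction and 24.0% lower, so a call was common. Over the family the median log2 difference was 0.00, with 4 of 8 above 0 (52.9% of all genes), against a median of 0.08 over all genes with quartiles of -0.61 and 1.09. The 2 called members were also the only ones whose groups did not overlap, against 63.8% of all genes, or 29.5% with KO lower.

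Gimap9 had 89.4, 62.2 and 108 CPM in KO, against 155, 138 and 157 CPM in WT. All 3 KO libraries were lower, with means of 86.6 ± 23.2 CPM in KO and 149.9 ± 10.2 CPM in WT, and the log2 difference was -0.79 ± 0.20 (edgeR adjusted p = 0.00549). By Xist and Y-linked genes, 2 KO libraries were female and 1 male, and all 3 WT libraries were male. With sex as a covariate the KO term therefore rests on KO replicate 3 alone against WT. That term was -0.47 for Gimap9, a smaller difference than without sex. As it rests on 1 library, no call is read from this fit for any member. Gimap5 had 10.7, 13.8 and 11.6 CPM in KO, against 16.7, 21.1 and 18.6 CPM in WT. All 3 KO libraries were again lower, with means of 12.1 ± 1.59 CPM in KO and 18.8 ± 2.21 CPM in WT and a log2 difference of -0.64 ± 0.21 (adjusted p = 0.0245). This call was lost with library size alone (-0.54, adjusted p = 0.0594), with the replicate number as a block (-0.64, 0.0506), without WT replicate 2 (-0.60, 0.0831) and without KO replicate 1 (-0.59, 0.0578). With sex as a covariate, again KO replicate 3 alone against WT, the difference of Gimap5 was -0.69.

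The neighbours of Gimap5 on the chromosome did not follow it. Gimap1 had 173, 135 and 267 CPM in KO, against 156, 138 and 131 CPM in WT (0.44 ± 0.22, adjusted p = 0.114). It was called without KO replicate 2 (0.55, adjusted p = 0.0284). With sex as a covariate, which sets KO replicate 3 alone against WT, the difference was 0.92. Gimap3 had 27.99, 12.2 and 19.2 CPM in KO, against 14.2, 10.8 and 15.3 CPM in WT (0.56 ± 0.29, adjusted p = 0.124), and was called without KO replicate 2 (0.74, 0.0308). In both genes the KO libraries ran from within the WT range to above it.

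Gimap4 had 19.0, 9.63 and 17.5 CPM in KO, against 11.7, 9.99 and 14.2 CPM in WT (0.36 ± 0.28, adjusted p = 0.291). KO replicate 2 had the lowest level of the 3 KO libraries in Gimap4, Gimap3, Gimap1, Gimap7 and Gimap9. Gimap7 had 6.03, 2.63 and 7.86 CPM in KO, against 9.40, 6.81 and 6.84 CPM in WT (-0.48 ± 0.38, adjusted p = 0.308). Gimap6 and Gimap8 had the smallest differences. Gimap6 had 344, 370 and 376 CPM in KO, against 363, 357 and 350 CPM in WT (0.03 ± 0.14, 95% interval -0.28 to 0.33, adjusted p = 0.886). Gimap8 had 223, 147 and 133 CPM in KO, against 187, 163 and 161 CPM in WT (-0.02 ± 0.20, adjusted p = 0.936).

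Markers were compared between these groups beside the 29.9% of all genes that were called higher in KO and the 24.0% called lower. Of 12 double-positive stage genes 7 fell in KO, with sums of 9302 to 11866 CPM in KO and 17668 to 19888 CPM in WT, and Rag1 averaged 1077 ± 121 CPM in KO and 5852 ± 738 CPM in WT (-2.44, adjusted p = 4.11e-05). Of 8 B cell genes tested 7 rose (sums of 63.2 to 67.1 CPM in KO and 26.1 to 27.5 CPM in WT), and so did 6 of 8 endothelial genes. These lists hold 10 and 12 genes. Genes near the floor in WT, such as Pax5 (0.58 CPM) and Tek (0.17 CPM), can pass the filter only through KO libraries. Near the share of all genes lay 3 of 9 myeloid genes (38.0 to 57.1 CPM in KO and 22.7 to 30.1 CPM in WT) and 2 of 6 NK, NKT and gamma-delta genes (127 to 166 CPM in KO and 99.5 to 129 CPM in WT), which rose. The mean log2 CPM of the 12 endothelial genes was 0.90 to 0.92 in KO and -1.28 to -0.59 in WT, while their sums, mostly Pecam1, overlapped at 120 to 149.6 CPM in KO and 141 to 162 CPM in WT. Positive selection genes fell in 6 of 12. Their sums were 650, 1684 and 639 CPM in KO replicates 1, 2 and 3, against 896 to 1121.5 CPM in WT. Of 16 mature thymocyte and egress genes 4 fell, near the share of all genes, and 1, Itgb7, rose. Entries outside genes made up 11.8% to 15.03% of KO and 7.23% to 7.60% of WT libraries. The part of these differences in the levels of Gimap9 and Gimap5 was not tested.

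Calls in the Atg8, BCL2 and interferon-induced GTPase lists are to be read against the 53.9% of all genes called. Gabarapl2 fell to 37.0 ± 4.95 CPM in KO, against 64.6 ± 3.81 CPM in WT (-0.81, adjusted p = 0.00194), and was the only one of 5 Atg8 family genes called. Of 14 BCL2 family genes tested, 3 rose, among them the proapoptotic Bax (80.5 ± 22.3 CPM in KO and 35.6 ± 6.83 CPM in WT), and 3 fell, among them the survival gene Mcl1 (402 ± 57.3 CPM in KO and 661 ± 41.7 CPM in WT). Interferon-induced GTPases fell in 3 of 16 and rose in 1, Gbp8.

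Whether the KO minus WT difference was unequal between the 2 sets was tested as an interaction in 1 fit of 12 libraries. It was called for 2 of 8 members, both more negative in the set without an age, against 36.9% of all 16557 genes called and 17.7% called in that direction. For Gimap9 the difference of differences was -0.78 ± 0.22 (adjusted p = 0.011) and for Gimap5 -0.64 ± 0.23 (adjusted p = 0.045). Gimap9 was called in each of 19 alternatives, from -1.16 to -0.66, and Gimap5 in 16 of 19, from -0.97 to -0.57. Among these, sex as a covariate, added after the data were seen, gave -0.66 for Gimap9 (adjusted p = 0.0267) and -0.58 for Gimap5 (0.0987), and Gimap1 was then called (0.73, 0.0252). Young KO and young WT each held 1 female and 2 male libraries, so sex was unbalanced only in the set without an age. Gimap1 had the largest positive value (0.57 ± 0.25, adjusted p = 0.0828). The median of all genes was 0.14 in this fit. The sets differ in sequencing, in the number of gene identifiers listed (55335 and 54532), in the share of Gimap1os counts and in Mettl3 counts. The age of the second is not given, and these cannot be told apart here.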

How the data were processed

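The deposited files hold raw read counts per gene in each of 16 libraries, made by the authors from sorted thymic double-positive cells. The submitters' processing notes name HISAT2 2.0.5 and mm10. How reads were counted (program, annotation, strand) is not given in the sources used here. Entries naming no gene (56.8% to 58.4% per library with an age, 62.7% to 72.7% without) stayed out of library sizes. Gene symbols were matched for 55154 of 55335 identifiers with an age and 54409 of 54532 without, and gene positions came from GENCODE for mm10.

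Tests used edgeR 4.0.16 under R 4.3.3 (filterByExpr, TMM, robust quasi-likelihood, two-sided, Benjamini-Hochberg over all genes tested, threshold 0.05). The 10 libraries with an age shared 1 fit, the 6 without had their own, and the interaction used 12. CPM were computed from the counts with TMM-scaled library sizes, and log2 CPM with a prior count of 2. CPM per kb used exon length not shared with another gene on the same strand. Alternatives were library size alone, size factors from DESeq2, no filter, limma-voom (3.58.1), DESeq2 1.42.0, a replicate block, sex as a covariate, the 2 groups alone and each library left out. Fits were tested on simulated data. Python 3.11.15 with pandas 2.3.3 and matplotlib 3.10.9 made tables and figures.

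The members and the 10 lists (119 genes) were chosen with earlier results of these data known: mature thymocyte and egress, double-positive stage, positive selection, B cell, myeloid, NK, NKT and gamma-delta, endothelium, BCL2 family, Atg8 family and interferon-induced GTPases. Named were all 8 members, genes overlapping them, Mettl3, up to 3 genes of a list with the smallest p and the 5 genes most like the family. Slfn1, S1pr1, Ccr7, Il7r, Klf2 and Foxo1 in old WT replicate 3, Tie1 and Cldn5 at 0, and Cd4, Cd8a and Rag1 in the check of the cell type were chosen otherwise, the first 8 after their values were seen. Of the listed genes, 1 is not reported here. Counting intervals are not given, and all errors are spread between libraries.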

Additional observations from a re-analysis of the deposited data

Results flagged for a closer look

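In old WT, the highest library stood apart from the other 3 by Dixon's test in Gimap4 (156 CPM) and Gimap3 (146 CPM), and in the summed mature thymocyte and egress genes (1688 CPM) and myeloid genes (292 CPM), each time in replicate 3. The summed endothelial genes stood apart in replicate 4 (129.9 CPM). A total of 20 sets of 4 values were checked and 5 stood out, where chance gives about 1 in 20. All 20 sets come from the same 4 libraries, so the 5 are not independent of each other. The KO minus WT difference was unequal between the sets for Gimap9 (-0.78 on the log2 scale) and Gimap5 (-0.64), by the interaction test.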

How the results depend on the processing

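In old against young WT no member was called in 14 of 15 alternatives, and 1 (Gimap6) in DESeq2, and 117 member values kept their direction and side of the threshold. DESeq2 gave no adjusted p for Gimap4 and Gimap3, whose direction was kept. The mean log2 CPM of the family was 0.53 higher in old WT, and 0.25 to 0.64 with 1 library left out, lowest without old WT replicate 3. All genes called numbered 36, and 85 with no filter, 153 in DESeq2, 11 with the 2 groups alone and 8 to 59 with 1 library left out (13, 10 and 8 when young WT replicate 1, 2 or 3 was left out, 59 when it was old WT replicate 4). In young KO against young WT no member was called in any alternative, and 1 gene of all was with no filter. With 1 library left out, Gimap1 lay between -0.022 and 0.0716, Gimap8 between -0.0082 and 0.108 and Gimap7 between -0.0687 and 0.137.

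In KO against WT without an age, 1 member was called with library size alone, against 2. With 1 library left out it was 1 to 4, with 1 without WT replicate 2 or KO replicate 1, and 4 without KO replicate 2. The family's mean log2 CPM difference was -0.11, and -0.21 to 0.07 with 1 library left out. Of members that were not called, Gimap8 turned to 0.0821 with library size alone and lay between -0.31 and 0.0507 with 1 library left out. Gimap6 turned to -0.16 with no filter and lay between -0.0712 and 0.0354 with 1 library left out. Gimap7 turned to 0.0328 with sex as a covariate, which sets KO replicate 3 alone against WT. The median of all genes was 0.08 with TMM, 0.17 with library size alone and 0.53 with no filter.

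In the interaction, 1 to 3 members were called with 1 library left out (2 in all libraries, 1 without WT replicate 2 of the set without an age). Gimap6 (0.07) turned to -0.19 with no filter and -0.0042 with library size alone, and lay between -0.20 and 0.0454 with 1 library left out. Gimap8 (0.10) turned to -0.16 with no filter and -0.0129 with sex as a covariate (added after the data were seen), and lay between -0.35 and 0.12, and Gimap4 (0.32) lay between -0.0897 and 0.41. The median of all genes was 0.14, and 0.50 with no filter. The share of higher calls was 52.0%, and 36.3% with no filter. These causes were not tested.

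Same-numbered libraries of different groups did not deviate together. The r of their deviations from the group means was -0.229 to 0.087 over 9 pairs with an age, and -0.125 to 0.009 over 3 pairs without. Differently numbered libraries gave -0.197 to 0.324 with an age and -0.07 to 0.099 without. The numbers thus showed no pairing of samples, though so few pairs cannot exclude it. With the replicate number as a block, 1 member, Gimap9, was called in KO against WT without an age (-0.83, adjusted p = 0.00853) and 1, also Gimap9, in the interaction (-0.81, adjusted p = 0.00665). The calls of Gimap5 were lost there (-0.64, adjusted p = 0.0506 in KO against WT without an age, and -0.64, adjusted p = 0.0582 in the interaction), and 61 genes of all were called in old against young WT. Old WT replicate 4 has no partner under the block. Depth limits Gimap7 most, at 30 to 192 counts per library.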
